A study of Drosophila melanogaster with 8 samples.

Results

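Transcripts of 5 genes of trehalose and glycogen use were followed in Drosophila S2R+ cells, a cell line with features of blood cells. The genes are Tret1-1 and its paralog Tret1-2 (grouped as trehalose transporters), Treh (trehalase), Tps1 (trehalose synthesis) and GlyP (glycogen phosphorylase). Whether the product of Tret1-2 carries trehalose was not tested. They were taken by exact symbol from tables of 14161 genes, and all 5 were found. The symbols themselves hold no measured value, but the set was selected on earlier results of these same comparisons, of which the particular values are not recorded. Fold changes and adjusted p-values of the 5 genes below therefore describe the fit and are no independent evidence.

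Trehalose is the main circulating sugar of insects. It is made from glucose phosphates by the enzyme that Tps1 encodes, mainly in the fat body, crosses cell membranes through the facilitated transporter Tret1, and is split into glucose by trehalase. Glycogen is the stored form of glucose inside cells, and glycogen phosphorylase releases glucose-1-phosphate from it, under the control of phosphorylase kinase and of phosphatases held at the glycogen particle by targeting subunits.

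The study asked what changes in these cells when the endogenous genes twi, sna or both are switched on. Their products, the bHLH factor Twist and the zinc-finger factor Snail, are known from the embryonic mesoderm. All 8 libraries came from S2R+ cells that received Actin:dCas9-VPR, a Cas9 without cutting activity fused to a transcriptional activator, by transfection. The 4 groups of 2 libraries each received Twist guides (a pool of 5 guide RNAs), Snail guides (a pool of 5), both pools, or control guides. Per the labels the control guides match the promoter of a luciferase reporter, while the protocol names them non-targeting. The libraries hold messenger RNA of a whole culture, so transfected and untransfected cells were measured together, and fewer cells expressing a gene cannot be told apart from less RNA per cell.

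Total counts per library ranged from 10752993 to 13351166. The targets responded as labelled. Counts of twi were 345 and 384 with Twist guides, 164 and 137 with both pools and 0 in the other 4 libraries. Counts of sna were 1079 and 1218 with Snail guides, 1485 and 1320 with both pools and 0 to 2 in the others. In the combination twi was thus lower, and sna higher, than with its pool alone. Of 8 hemocyte markers, crq, srp and Pxn averaged 184, 144 and 91.1 CPM (counts scaled to library size with TMM factors) over all libraries, while Hml, eater, He, Nplp2 and nimC1 averaged below 1 CPM. Of 6 fat body markers, Lsp1alpha had 0 counts in every library, Lsp1beta, Lsp2, Fbp1 and Fbp2 averaged 0.0511, 0.14, 0.0324 and 0.131 CPM, and the lipophorin gene Rfabg averaged 54.6 CPM. The control libraries differed from each other along transcript length. Spearman's correlation across 7808 genes, which are not independent replicates, between length and the difference of replicate 2 minus replicate 1 was 0.34 in the control pair, against -0.19, 0.07 and -0.18 in the Twist, Snail and both-pool pairs.

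The level of trehalose transporter, trehalase and phosphorylase RNA was highest in the 2 libraries with both pools. How many of all tested genes were highest in these libraries was not counted. Against control guides, 4 of the 5 genes passed the test upward with both pools (Tret1-1, Tret1-2, Treh and GlyP), at 1.33-fold to 1.56-fold, beside 1.17% of all 8029 tested genes called higher. With Snail guides 1 of 5 passed upward (Tret1-2), beside 0.224% of all tested genes. With Twist guides 0 of 5 passed, beside 0.822% called higher. A call here is an adjusted p of 0.05 or less from edgeR's quasi-likelihood test, adjusted over all tested genes of a comparison by the Benjamini-Hochberg method. With Twist guides 2 of the 5 had an unadjusted p under 0.05, both higher, beside 4.61% of all tested genes, and DESeq2 called 0. All 5 genes passed the filter on low counts. Tps1 passed only through Twist replicate 1 and replicate 2 of both pools (12 counts each). Its control libraries had 6 and 5 counts. Its place above control in the comparisons and medians below was thus partly set by the filter. All 5 lay above both control libraries in both libraries with both pools, beside 22.0% of all tested genes, and in both with Snail guides, beside 21.5%; with Twist guides 3 did (Tret1-1, Tret1-2 and Tps1), beside 15.2%. The median log2 fold change of the 5 genes was 0.28 in the Twist comparison, 0.32 in the Snail comparison and 0.59 for both pools, against -0.01, 0.00 and -0.01 over all tested genes. The 3 comparisons share the same 2 control libraries.

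**Figure D1:**
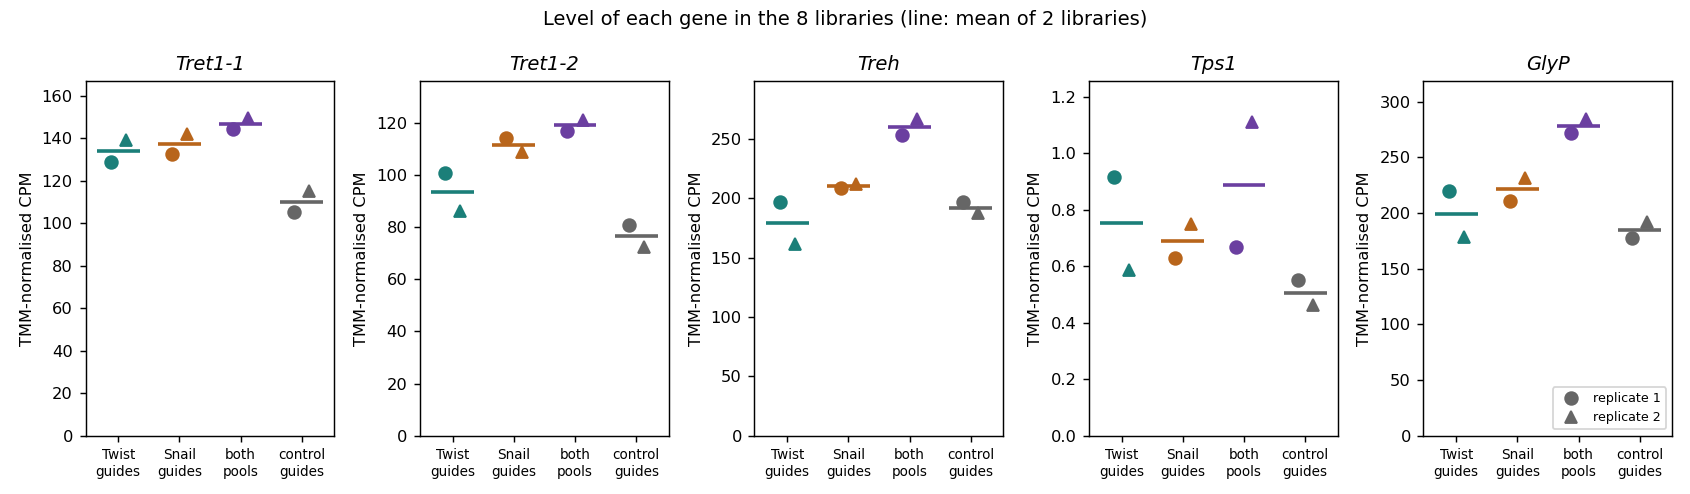
TMM-normalised CPM of the 5 genes (1 panel each, linear axis from 0) in the 8 libraries, by guide group; circles are replicate 1, triangles replicate 2, and lines the mean of 2. For Tret1-1, Tret1-2, Treh and GlyP, both libraries with both pools lie above all 6 other libraries, with GlyP at 272 and 284 CPM against 178 and 192 CPM with control guides. The share of all tested genes with this pattern was not counted.

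Tret1-1 (FBgn0050035; chromosome 2R, 11665768 to 11674782 in BDGP6.54) encodes a facilitated trehalose transporter. It stood at 129 and 139 CPM with Twist guides, 132 and 142 CPM with Snail guides, 144 and 149 CPM in libraries with both pools, and 105 and 115 CPM with control guides. Every library with an activating pool lay above both control libraries, and the libraries with Twist and Snail guides overlapped each other. With both pools Tret1-1 rose 1.33-fold over control (95% interval 1.18 to 1.50; log2 0.41 ± 0.08, SE; adjusted p = 0.0246; higher in 2 of 2 libraries). Its log2 fold change was 0.28 ± 0.08 with Twist guides (adjusted p = 0.207) and 0.32 ± 0.08 with Snail guides (adjusted p = 0.146), neither of them called.

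Tret1-2 (FBgn0033644, chromosome 2R, 11675935 to 11678014) is a paralog that begins 1152 bp after the end of Tret1-1 on the same strand. Both overlap the span of Roc2, a gene on the opposite strand, with no overlap of exons. It stood at 101 and 86.3 CPM with Twist guides, 114 and 109 CPM with Snail guides, 117 and 121 CPM in libraries with both pools, and 80.8 and 72.3 CPM with control guides. The order of the groups was both pools, Snail guides, Twist guides and control guides, with no overlap between any pair of groups. The share of all tested genes with such an order was not counted. The rise over control was 1.56-fold with both pools (interval 1.35 to 1.79; log2 0.64 ± 0.09; adjusted p = 0.00413) and 1.46-fold with Snail guides (1.26 to 1.68; log2 0.54 ± 0.09; adjusted p = 0.0322). With Twist guides the log2 fold change was 0.29 ± 0.09 (adjusted p = 0.331). Both pools against Snail guides gave 0.09 ± 0.09 (adjusted p = 0.609) and Twist guides against Snail guides gave -0.25 ± 0.09 (adjusted p = 0.337), so these neighbours in the order were not separated by the test.

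The share of Tret1-1 among the counts of both transporter genes tells whether they kept the same ratio. It was 56.1% (exact Clopper-Pearson 95% interval 54.3 to 57.9) and 61.7% (60 to 63.4) with Twist guides, and 53.7% (51.8 to 55.6) and 56.6% (54.8 to 58.3) with Snail guides. In libraries with both pools it was 55.2% (53.5 to 57) and 55.2% (53.4 to 57), against 56.6% (54.4 to 58.8) and 61.4% (59.2 to 63.5) with control guides. The replicates within the Twist group and within the control group lay as far apart as the groups, and the intervals cover counting error only. No source used here states how reads matching both paralogs were counted, so the split between them is uncertain.

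Treh (FBgn0003748; chromosome 2R, 21074018 to 21088945) encodes trehalase, which splits trehalose into glucose. It stood at 197 and 162 CPM with Twist guides, 208 and 212 CPM with Snail guides, 253 and 266 CPM in libraries with both pools, and 196 and 187 CPM with control guides. The libraries with both pools lay above the other 6, and the Twist libraries overlapped the control libraries. The rise with both pools was 1.35-fold over control (interval 1.18 to 1.55; log2 0.44 ± 0.09; adjusted p = 0.0363). The log2 fold change was -0.10 ± 0.09 with Twist guides (adjusted p = 0.889) and 0.13 ± 0.09 with Snail guides (adjusted p = 0.536). Some exons of Treh overlap those of Rbpn-5 (CG4030 in the tables) on the opposite strand, and no source used here states the strand setting. CG4030 averaged 65.1, 54 and 58.2 CPM in the Twist, Snail and both-pool libraries, against 65.4 CPM in the controls. The part of reads from the shared exons in the level of Treh was not tested.

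GlyP (FBgn0004507, current symbol Glyp; chromosome 2L, 2130813 to 2137296) encodes glycogen phosphorylase. It stood at 220 and 178 CPM with Twist guides, 211 and 231 CPM with Snail guides, 272 and 284 CPM in libraries with both pools, and 178 and 192 CPM with control guides. Both libraries with both pools were above every other library, and the Twist libraries overlapped the control libraries. With both pools GlyP rose 1.51-fold over control (interval 1.30 to 1.75; log2 0.59 ± 0.10; adjusted p = 0.00983). No annotated gene overlaps GlyP. The log2 fold change was 0.11 ± 0.10 with Twist guides (adjusted p = 0.887) and 0.26 ± 0.10 with Snail guides (adjusted p = 0.272).

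Tps1 (FBgn0027560; chromosome 2L, 4388327 to 4392778), the synthesis gene, was barely detected. It had 12 and 8 counts with Twist guides, 7 and 9 counts with Snail guides, 8 and 12 counts with both pools, and 6 and 5 counts with control guides. The control libraries were the lowest, yet at these counts the fold change with both pools was 1.72 with an interval of 0.766 to 3.85 (log2 0.78 ± 0.54; adjusted p = 0.499), and no difference was detectable at this depth. Its exons overlap those of CG3652 on the opposite strand, which averaged 34.6, 39 and 35.7 CPM in the Twist, Snail and both-pool libraries and 38.2 CPM in the controls.

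Per length of the longest annotated transcript, GlyP RNA was the most abundant of the 5 in every group, Tret1-1 the fourth and Tps1 the least. GlyP had 88.4 CPM per kb with both pools and 58.7 with control guides. Treh had 77.4 CPM per kb with both pools and 57.2 with control guides, Tret1-2 70.2 and 45.2, and Tret1-1 46.9 and 35.2. The order of Treh and Tret1-2 was the other way round with Twist guides, at 53.5 CPM per kb for Treh and 55.2 for Tret1-2, and with Snail guides, at 62.7 and 65.8. Tps1 had 0.304 CPM per kb with both pools and 0.174 with control guides. Among the 5 genes, RNA of GlyP, Treh, Tret1-2 and Tret1-1 was thus far more abundant than RNA of Tps1, which was near the limit of detection. Their place among all tested genes per transcript length was not counted.

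The comparisons among activated groups show how each pool differed from the combination. Levels of twi were lower with both pools than with Twist guides, and those of sna higher than with Snail guides. The comparisons therefore do not hold the level of either target constant. Both pools against Twist guides gave calls for 2 of 5 genes, beside 0.498% of all tested genes called higher: Treh, at 260 CPM with both pools and 179 CPM with Twist guides, rose by 0.53 ± 0.09 on the log2 scale (adjusted p = 0.0214), and GlyP, at 278 and 199 CPM, rose by 0.48 ± 0.10 (adjusted p = 0.0382). Tret1-2 stood at 0.35 ± 0.09 (adjusted p = 0.0882), Tret1-1 at 0.13 ± 0.08 (adjusted p = 0.405) and Tps1 at 0.23 ± 0.47 (adjusted p = 0.842). Tret1-2 was called with no filter (adjusted p = 0.0197) and with only the 2 groups fitted (0.0208). Its log2 fold change was 0.24 to 0.46 over the 8 fits that left out a library. Between the Twist libraries, replicate 2 was lower than replicate 1 by 0.28 for Treh and 0.30 for GlyP on the log2 scale (replicate 2 minus replicate 1: -0.28 and -0.3). Without Twist replicate 2 the difference was 0.40 for Treh (adjusted p = 0.277) and 0.34 for GlyP (adjusted p = 0.519), and both calls were lost. They were also lost without either Snail library (Treh adjusted p = 0.0575 and 0.0597, GlyP 0.0744 and 0.0746) or either library with both pools (Treh 0.115 and 0.339, GlyP 0.153 and 0.436), and held without Twist replicate 1 or either control library.

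Both pools against Snail guides gave 0 calls by edgeR among the 5 genes, beside 0.710% of all tested genes called higher; 2 genes had an unadjusted p under 0.05, both higher, beside 10.5% of all tested genes, and DESeq2 called 0. Treh differed by 0.30 ± 0.09 (interval of the fold 1.08 to 1.42; adjusted p = 0.121) and GlyP by 0.33 ± 0.10 (1.08 to 1.46; adjusted p = 0.121). Over the 8 fits that left out a library, the difference was 0.27 to 0.35 for Treh and 0.27 to 0.40 for GlyP. Twist guides against Snail guides gave 0 calls by edgeR, beside 1.08% of all tested genes called, with 2 genes, both lower, at an unadjusted p under 0.05, beside 11.9%, and 0 called by DESeq2. These were Tret1-2 (-0.25 in both fits that left out a control library) and Treh. In that comparison Treh stood at -0.23 ± 0.09 (adjusted p = 0.37) and GlyP at -0.15 ± 0.10 (adjusted p = 0.52).

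Whether the combination differed from the sum of the single pools was tested by an interaction term, a comparison chosen after seeing the data. Because twi and sna levels differed between the combination and the single pools, the term does not compare equal levels of the targets. On the log2 scale, the change with both pools minus the changes with each pool was 0.40 ± 0.13 for Treh (adjusted p = 0.196), 0.22 ± 0.14 for GlyP (adjusted p = 0.466), -0.18 ± 0.11 for Tret1-1 (adjusted p = 0.462), -0.20 ± 0.13 for Tret1-2 (adjusted p = 0.497) and -0.22 ± 0.73 for Tps1 (adjusted p = 0.918). None of the 5 passed by edgeR, beside 0.174% of all tested genes called, and 1 (Treh) had an unadjusted p under 0.05, beside 14.6% of all tested genes. Treh and GlyP stood above the sum and both transporters below it, and none of these differences passed after adjustment.

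**Figure D2:**
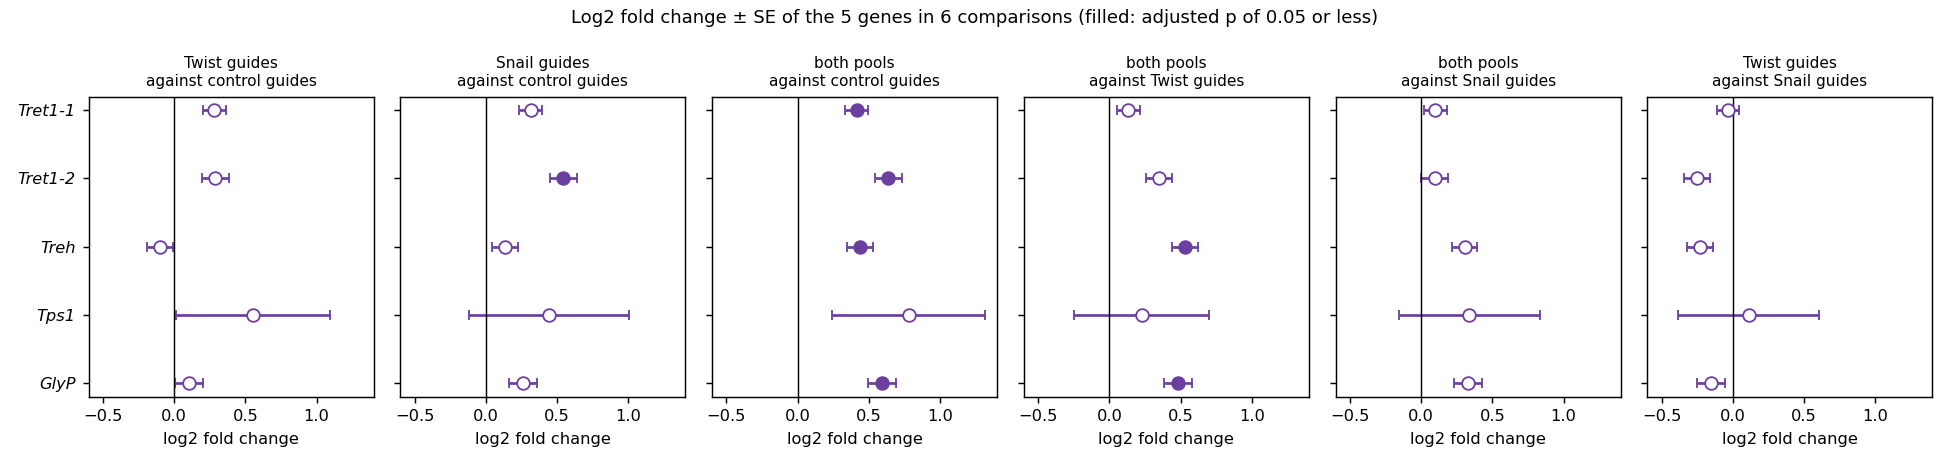
Log2 fold change (x axis; first-named group minus second) with its SE for the 5 genes in 6 comparisons, with filled points called at an adjusted p of 0.05 or less. Filled points are Tret1-2 with Snail guides, all genes but Tps1 for both pools against control, and Treh and GlyP for both pools against Twist guides.

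The calls against control rested on few libraries. With both pools, Tret1-2 was lost without replicate 2 of both pools (adjusted p = 0.075) and passed in the other 7 fits that left out a library. GlyP was lost without replicate 1 (0.0659) or replicate 2 (0.126) of both pools. Tret1-1 was lost without Snail replicate 1 (0.0569), Snail replicate 2 (0.0574), replicate 1 (0.135) or replicate 2 (0.297) of both pools, and Treh without the same 4 libraries (0.0772, 0.0785, 0.162 and 0.369). Fitting both pools and control alone also lost Tret1-1 (0.125) and Treh (0.0969). The fold changes themselves moved little, with log2 values of 0.35 to 0.48 for Tret1-1, 0.56 to 0.72 for Tret1-2, 0.40 to 0.48 for Treh and 0.53 to 0.64 for GlyP over the 8 fits.

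**Figure D3:**
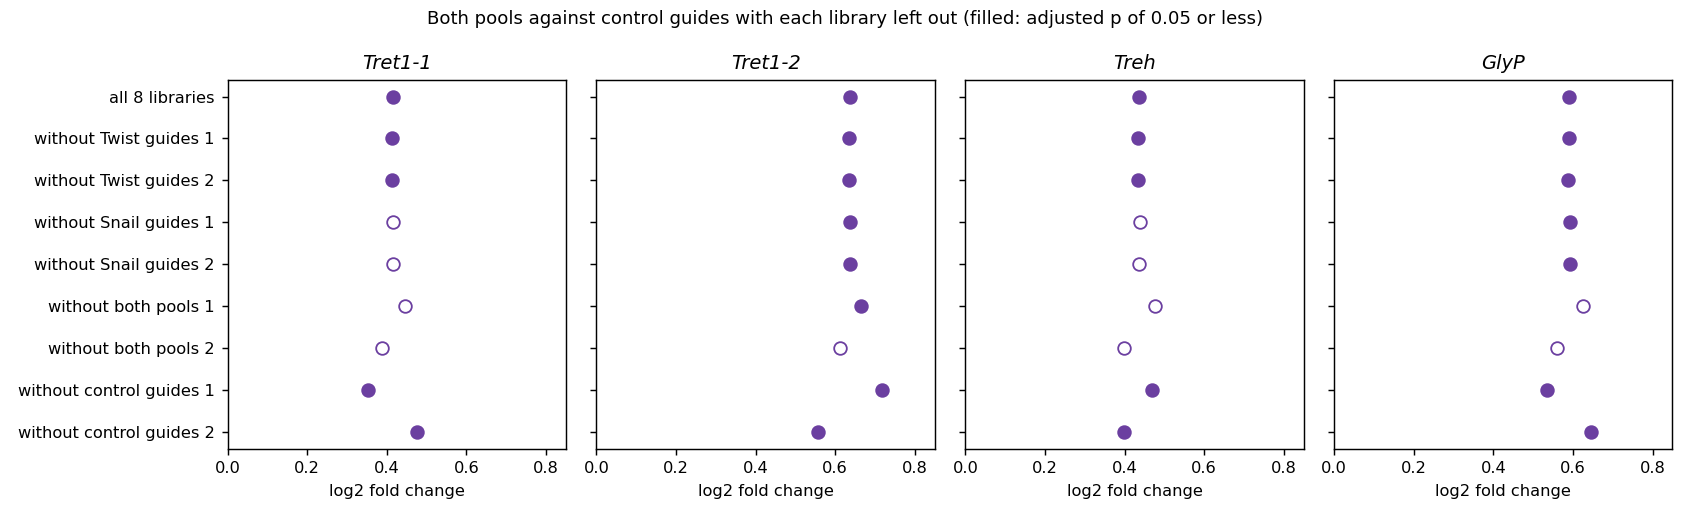
Log2 fold change of 4 genes, both pools against control guides (x axis), with all 8 libraries and with each library left out (rows); filled points are called at an adjusted p of 0.05 or less. Every point lies above 0.3, and open points gather in the rows that leave out a Snail library or a library with both pools.

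The call of Tret1-2 with Snail guides was lost without Snail replicate 1 (adjusted p = 0.474), Snail replicate 2 (0.281) or either library with both pools (0.092 and 0.0864), and when only the Snail and control groups were fitted (0.212). Its log2 fold change stayed between 0.46 and 0.63. With Snail guides, Tret1-1 stood at 0.26 without control replicate 1 and at 0.38 without control replicate 2. With Twist guides, Tret1-1 stood at 0.34 without control replicate 2, and Tret1-2 at 0.37 without control replicate 1.

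Other genes of the pathway were read from lists written from textbook knowledge. Of 15 other trehalose and glycogen enzymes and regulators in the tables, 11 were tested; the trehalose-phosphatase-like genes CG5171 and CG5177 and the glucosidase gene tobi were under 0.2 CPM on average. With both pools 2 of 11 rose and 0 fell, beside 1.17% of all tested genes called higher (median log2 fold change 0.16). With Snail guides 0 of 11 passed by edgeR and 0 by DESeq2, and 1 had an unadjusted p under 0.05, beside 14.0% of all tested genes (median 0.12). With Twist guides 0 of 11 passed by edgeR and 0 by DESeq2, and 1 had an unadjusted p under 0.05, beside 8.28% of all tested genes (median 0.08). CG9619 (current symbol Gbs-76A), a subunit that targets a phosphatase to glycogen, stood at 48.3 and 37.9 CPM with Twist guides, 50.2 and 47.1 CPM with Snail guides, 52.8 and 55.5 CPM in libraries with both pools, and 35.5 and 35.3 CPM with control guides. All 6 activated libraries lay above both control libraries, and CG9619 rose by 0.61 ± 0.11 with both pools (log2; adjusted p = 0.0169). Leaving out either library with both pools removed that call (adjusted p = 0.102 and 0.203).

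CG8475, which encodes a regulatory subunit of phosphorylase kinase, the activator of glycogen phosphorylase, rose by 0.36 ± 0.08 with both pools (adjusted p = 0.0473), at 191 and 212 CPM with both pools and 153 and 162 CPM with control guides. This call was close to the threshold: it was lost with library size alone (adjusted p = 0.0604), after a correction for transcript length (0.0581), with only the 2 groups fitted (0.193), and without any one of the Twist libraries (0.0564 and 0.057), Snail libraries (0.107 and 0.108) or libraries with both pools (0.124 and 0.496). The other phosphorylase kinase genes stood at 0.22 ± 0.09 (CG7766, adjusted p = 0.256) and 0.16 ± 0.10 (PhKgamma, adjusted p = 0.451). Glycogenin, the primer of glycogen chains, had 19.5 and 21.6 CPM with both pools and 11.1 and 14.3 CPM with control guides (0.70 ± 0.17, adjusted p = 0.0718). It stood at 0.89 when control replicate 2 was left out, and passed with no filter on low counts (adjusted p = 0.00203). Against Snail guides, where it had 10.4 and 12.6 CPM, it rose with both pools by 0.84 ± 0.17 (adjusted p = 0.0457), a call lost without either Snail library (0.418 and 0.173) or either library with both pools (0.183 and 0.362). CG6904, glycogen synthase and the most abundant gene of the list, stood at 0.11 ± 0.09 with both pools (adjusted p = 0.587), so the chain-building enzyme did not pass while phosphorylase did; the difference between the genes was not tested.

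The rest of sugar handling showed few calls. Of 25 sugar transporter genes other than Tret1 in the tables, 7 were tested and 0 passed by edgeR with any of the 3 activations; 2, 1 and 0 of the 7 had an unadjusted p under 0.05 in the Twist, Snail and both-pool comparisons, beside 8.28%, 14.0% and 16.5% of all tested genes, and DESeq2 called 0 in each. The most abundant of them, sut1, averaged 49.5 CPM over all libraries and stood at 0.08, 0.07 and 0.03 on the log2 scale in the Twist, Snail and both-pool comparisons (adjusted p = 0.929, 0.809 and 0.939). Hexokinase Hex-A and the isomerase Pgi, which carry glucose into glycolysis, stood at 0.34 ± 0.09 (adjusted p = 0.0891) and 0.31 ± 0.08 (adjusted p = 0.0899) with both pools, both at an unadjusted p under 0.05, beside 16.5% of all tested genes, and DESeq2 called 1 of the 2. Neither had an adjusted p under 0.3 with Twist or Snail guides. With Snail guides 1 of the 2 had an unadjusted p under 0.05, higher, beside 14.0% of all tested genes. With Twist guides 0 did, beside 8.28%, and DESeq2 called 0 in both comparisons.

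Among 15 tested genes of sugar sensing and hormone response, 1 (Thor) was called higher with both pools over control, beside 1.17% of all tested genes. The others did not pass in that comparison. Thor encodes the translation repressor 4E-BP, a target of insulin and foxo signalling, and had 68.8 and 78.6 CPM with both pools against 51.2 and 52.1 CPM with control guides (log2 0.51 ± 0.10, adjusted p = 0.0262). The call was lost without either Snail library (0.0569 and 0.0573), either library with both pools (0.0677 and 0.373) or with only the 2 groups fitted (0.0926). With Twist or Snail guides 0 of 15 passed by edgeR and by DESeq2, and 2 of 15 with Twist guides and 3 of 15 with Snail guides had an unadjusted p under 0.05, beside 8.28% and 14.0% of all tested genes. Mio (current symbol Mondo), a sugar-sensing transcription factor and the most abundant of the list, stood at 0.01, -0.12 and -0.02 on the log2 scale in the Twist, Snail and both-pool comparisons. daw, a TGF-beta family ligand linked to sugar sensing, was higher with both pools than with Twist guides (40.4 and 28 CPM; log2 0.53 ± 0.11, adjusted p = 0.0376) and lower with Twist guides than with Snail guides (28 and 42.1 CPM; -0.59 ± 0.11, adjusted p = 0.0159). The first of these daw calls was lost without any one of the 6 activated libraries (adjusted p from 0.0533 to 0.485), and the second without either Twist library (0.0835 and 0.239) or either Snail library (0.289 and 0.0924).

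**Figure D4:**
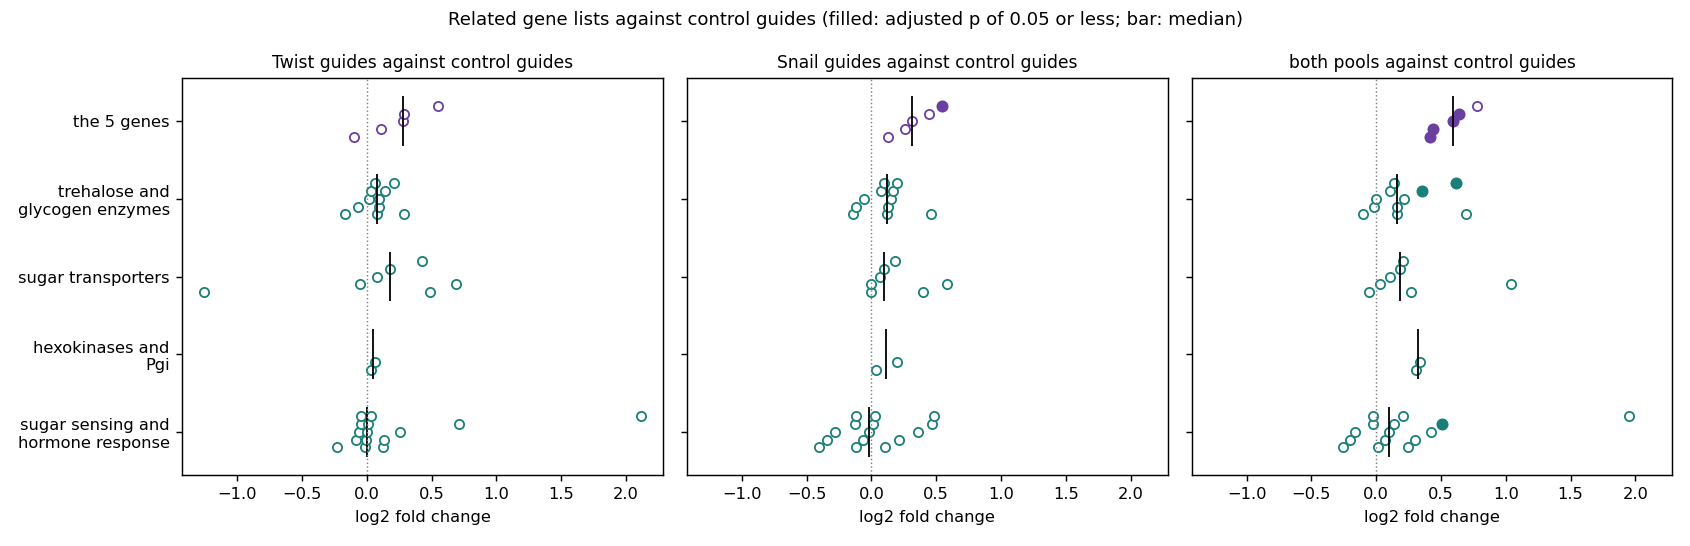
Log2 fold change against control guides (x axis) for the 5 genes and 4 related lists (rows) for the Twist, Snail and both-pool groups; each point is a gene, filled where called at an adjusted p of 0.05 or less, and bars are medians. With both pools the 5 genes have a median of 0.59, against 0.16 for the other trehalose and glycogen genes and 0.19 for other sugar transporters. The 5 genes were selected on earlier results of these comparisons, so this contrast of medians is no independent evidence.

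Levels of the 5 genes varied together to different degrees over the 8 libraries, which are 4 guide groups of 2 and share 1 transfection design. Pearson's r of log2(CPM + 0.5) was 0.92 between Treh and GlyP, 0.84 between Tret1-2 and GlyP, 0.80 between the 2 transporter genes and 0.48 between Tret1-1 and Treh. Among all tested genes, the 3 with the pattern most like Tret1-1 were ferrochelatase (r = 0.99), CG18605 (0.96) and Ric (0.94). For Tret1-2 they were angel (0.99), CG13928 (0.99) and CG9619 (0.97), the glycogen-targeting subunit described above. For Treh they were CG3655, RpL35 and CG9914 (each 0.98), for GlyP sba, CG11874 and CG8405 (each 0.98), and for the sparse Tps1 CG1943 (0.96), CG14829 (0.92) and Pur-alpha (0.91). With 8 libraries and 8029 genes such values describe likeness only.

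Markers of cell types were summed beside these changes. The summed level of the 6 fat body markers was 55.3 and 40.9 CPM with Twist guides, 54.2 and 41 CPM with Snail guides, 69.6 and 72.4 CPM in libraries with both pools, and 45 and 61.5 CPM with control guides, so both libraries with both pools were the highest, and nearly all of it was Rfabg (0.40 ± 0.21 on the log2 scale with both pools, adjusted p = 0.403). The summed hemocyte markers were 398 to 423 CPM with Twist guides, 395 to 400 CPM with Snail guides, and 406 to 414 CPM in the both-pool libraries. With control guides they were 445 and 481 CPM. Of 4 tested, 1 was called lower with both pools (Pxn, -0.37 ± 0.09, adjusted p = 0.0499), close to the threshold. In that comparison 2 of the 4 had an unadjusted p under 0.05, both lower, beside 16.5% of all tested genes. The 8 muscle markers summed to 9.38 and 6.61 CPM with Twist guides, 6.21 and 6.59 CPM with Snail guides, 9.75 and 10.1 CPM in libraries with both pools, and 7.05 and 8.35 CPM with control guides, so here too both libraries with both pools were the highest. Most of that difference from control lay in 1 gene, sls, at 3.97 CPM with both pools and 1.94 CPM with control guides. Its highest library was Twist replicate 1 (5.11 CPM). Mlc2 averaged 1.52 and 1.34 CPM in the same groups, wupA 1.31 and 1.24 CPM, and up 2.84 and 3 CPM. Mhc, Act88F, Act57B and TpnC73F averaged below 1 CPM. Of the 4 muscle markers tested, edgeR called 0 in each of the 6 comparisons, and DESeq2 called 1 higher for both pools against Snail guides. The part of these cell-type markers in the rise of the sugar genes was not tested.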

How the data were processed

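Each deposited table holds the raw counts of 1 library, by gene symbol; the submitters' processing notes name TopHat2 (version 2), Bowtie2, HTSeq and DESeq without role or order. No source used here states the genome build, annotation or strand setting. Gene positions and lengths were looked up in the BDGP6.54 annotation of Ensembl, where 10669 symbols matched as they stand, 2955 through an older name and 537 did not match. Differences were tested with edgeR 4.0.16 in R 4.3.3: its expression filter (10 counts at least) kept 8029 genes and removed 6132, and TMM factors, 1 quasi-likelihood fit with the 4 groups (robust; 4 residual degrees of freedom) and Benjamini-Hochberg adjustment at 0.05 followed; CPM values were computed from the deposited counts. With 2 libraries per group, which the series calls biological replicates, the spread was pooled over groups; separate cultures are not stated, so p-values measure only the spread between these samples. A fit that left 1 library in a group assumes that it varies like the rest. SE and intervals came from the F statistic. DESeq2 1.42.0 was an alternative test. Plots used matplotlib 3.10.9. The procedure was also run on simulated counts without trends along transcript length, and the outcome is not given here.

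The 5 genes and the lists were chosen with earlier results of these data known. Genes were named by rule: the 5 genes and both targets, the 3 genes most like each of the 5 by Pearson's r over 8 libraries, and from each list up to 4 called genes per comparison with control and the most abundant gene; Glycogenin, Pgi, daw, the kinase subunits and Pxn, and low members given with their level, were named after their values were seen. Of 18 written genes of sugar sensing, 1 was not matched; 2 of 16 written trehalose and glycogen symbols were the same gene. No sequences are shown.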

Additional observations from a re-analysis of the deposited data

How the results depend on the processing

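The number of the 5 genes called was the same as reported with DESeq2-type size factors, library size alone, a filter of 1 CPM in 2 libraries, the DESeq2 test and a correction for transcript length (chosen after seeing the data), in all 6 comparisons. Without a filter, 2 were called with Snail guides against control (1 as reported), 2 for both pools against Snail guides (0 as reported) and 3 for both pools against Twist guides (2 as reported). With only the 2 groups compared, 0 were called with Snail guides and 2 with both pools (4 as reported) against control, 2 for both pools against Snail guides and 3 for both pools against Twist guides; these fits hold fewer samples. Over the fits that left out 1 library, the number called was 0 to 1 with Twist guides, 0 to 2 with Snail guides and 0 to 4 with both pools against control, 0 to 3 for both pools against Twist guides, 0 to 2 for both pools against Snail guides, and 0 to 1 for Twist guides against Snail guides.

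Over all genes, 75, 26 and 126 were called with Twist guides, Snail guides and both pools against control. Without a filter these were 128, 218 and 353, with only the 2 groups 39, 6 and 56, and with 1 library left out 41 to 506, 6 to 1443 and 30 to 1148; DESeq2 called 78 with Snail guides. For both pools against Twist guides, both pools against Snail guides and Twist against Snail guides, 84, 73 and 87 were called, against 419, 436 and 198 without a filter, 710, 1549 and 705 with only the 2 groups, and 9 to 975, 9 to 1135 and 39 to 858 with 1 library left out. In the first 2 of these, DESeq2 called 158 and 183, and the length correction gave 157 for the first and moved the split of the second to 64 higher of 104, against 57 of 73. The causes were not tested.

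The replicate numbers share no stated batch, and the replicate deviations of different groups correlated at -0.16 to 0.14 across genes. With 2 libraries per group this cannot tell whether the numbers pair the samples. With the replicate number as a block, 76, 35 and 119 genes were called against control and 0, 1 and 4 of the 5 genes, as without it; CG8475 with both pools (adjusted p = 0.0705) and Glycogenin for both pools against Snail guides (0.0541) were not called. Depth limits Tps1, whose 5 to 12 counts per library leave its fold change open between 0.766 and 3.85 with both pools.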
